A study of Mus musculus with 18 samples.

Results

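Isoforms with unannotated splice sites are transcripts with at least 1 splice site that the annotation lacks. They were taken from the deposited isoform table as the entries in the category novel_not_in_catalog, leaving out those with the IEJ mark, which the sources used here do not explain, and those whose subcategory named intron retention. This gave 18598 of 114425 isoforms (16.3%), from 7476 of 17714 gene labels (42.2%), with 274532 of 10234812 reads (2.68%). The choice used structure labels only and no read counts. Beside them stood 3211 such isoforms with the IEJ mark and 4794 with partial intron retention, which were not counted as members.

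The libraries came from primary mouse brain cultures and from the small extracellular vesicles (sEVs) the cultures released, vesicles that carry RNA out of the cell. PacBio long-read cDNA sequencing gave 6 groups of 3 libraries: astrocyte sEVs, astrocyte cells, microglia sEVs, microglia cells, neuron sEVs and neuron cells. The study asks whether each cell type loads its own set of mRNAs into sEVs. The labels give no strain, age, sex, genotype or treatment, and do not say whether the replicates of a group were separate cultures, so p-values measure the spread between these libraries, which may be technical. All sEV libraries were sequenced in one pool and all cell libraries in another, and the RNA of sEVs and cells was extracted with different kits, so fraction, pool and kit cannot be told apart.

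An intron is removed between a 5′ splice site at its start and a 3′ splice site at its end, which small nuclear ribonucleoproteins and auxiliary proteins recognise. A site shifted from the annotated one lengthens or shortens an exon, and a pair of new sites inside an intron adds an exon. Such changes can alter the protein or introduce an early stop codon, and transcripts with an early stop are often degraded by nonsense-mediated decay. Brain tissue is known for extensive alternative splicing. A long read shows all the splice sites of a transcript together, but an isoform seen in few reads can also come from errors in cDNA synthesis, amplification or mapping.

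Library totals ran from 434298 to 683381 reads. No count of 1 was listed, as values above 0 began at 2, so a listed 0 may stand for 1 read. For a count of 0, a floor of 3 reads in a library was used. The labelled cell types were checked with summed marker reads-per-million values (RPM). Microglia markers reached 25122 ± 5490 in microglia sEVs and 56466 ± 3636 in microglia cells, against at most 276 ± 15.4 in the other groups (SD, n = 3). Neuron markers reached 4228 ± 543 in neuron sEVs and 11898 ± 1476 in neuron cells, against at most 727 ± 69.9 elsewhere. Astrocyte markers reached 25021 ± 7933 in astrocyte sEVs and 89938 ± 6895 in astrocyte cells, but also 20901 ± 933 in microglia cells and 14879 ± 949 in neuron cells. Oligodendrocyte lineage markers were present in astrocyte cells at 6879 ± 2737 and in neuron cells at 1211 ± 588. In bulk libraries, fewer cells of a type and less RNA per cell cannot be told apart. Astrocyte sEV library 1 and neuron sEV library 2 stood apart in the reads of one predicted gene, Gm42047, and results that rest on them are given with and without them.

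New exons were the most frequent kind of unannotated site. Of the members, 8576 (46.1%) were labelled novel_exon, 5112 (27.5%) Alt3, the usual short form for a shifted 3′ splice site, and 4075 (21.9%) Alt5, for a shifted 5′ splice site, and 835 (4.49%) carried several of these labels. In reads the order differed, with 43.6% in novel_exon isoforms, 35.7% in Alt5 and 18.5% in Alt3. The Alt5 share fell to 24.6% of member reads when Gm42047 was left out, since a single Alt5 isoform of that gene held 34502 reads. A RefSeq table matched 18205 members by gene symbol. Of these, 94.2% belonged to protein-coding genes and 4.91% to long noncoding RNA genes, against 97.0% and 2.38% of all matched isoforms. No member carried an unannotated or read-through gene label.

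Members were mostly rare and spread over many genes. Their median was 3 reads over all 18 libraries. Among genes with members, 3502 had only 1, the median was 2, and 918 had 5 or more. Gm42047 had the most, 75, followed by 5031425E22Rik with 73. Lilrb4b had 69 and Lilrb4a 31, both encoding inhibitory immune receptors so similar in sequence that reads may be split between them. Hnrnpk, which encodes a poly(C)-binding RNA-binding protein with roles in splicing and translation, had 44. Next came Lacc1 with 41, Zbtb20, a transcription factor gene, with 40, the imprinted noncoding RNA Meg3 with 35, and the neuronal splicing regulator Rbfox1 and the imprinted small ribonucleoprotein gene Snrpn with 34 each.

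In most genes these isoforms were a small part of the output. Of 5712 genes with 200 or more reads, 3995 (69.9%) had a member, and the median member share of their reads was 1.58%. The share passed 10% in 379 genes and 50% in 44, and in 53 genes the isoform with the most reads was a member. Hnrnpk had 12620 of 12716 reads (99.2%) in members. Rbfox1 had 66.2% of 281 reads in members, Snrpn 12.6% and Meg3 2.41%.

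Single isoforms dominated several genes. Mrpl33 isoform 13589, from a gene for a mitochondrial ribosome protein, held 95.4% of its gene's 305 reads. Rnf208 isoform 11046, from a RING finger gene, held 86.6%, A730017L22Rik isoform 102272 held 86.4%, Gm11007 isoform 10789 held 86.1%, and Capn2 isoform 1080, from the gene for the catalytic subunit of calpain 2, held 78.6%. In the same order they had reads in 18, 9, 3, 6 and 14 libraries. The A730017L22Rik reads were all in neuron sEVs, and those of Gm11007 in astrocyte and neuron cultures.

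Recurrence was low. In all, 15322 members (82.4%) were seen in 1 library only, and these held 33.0% of member reads. Over all isoforms the share was 64.5%, for new combinations of known junctions or splice sites 66.4%, for incomplete-splice matches 69.6%, and for full-splice matches 27.0%. The other isoforms with unannotated splice sites, which the rule leaves out, had shares of 86.4% for those with the IEJ mark and 82.4% for those with partial intron retention. Members in 3 or more libraries numbered 1530 (8.23%), and 65 were in 10 or more. Only 6 were in all 18 libraries. They were Hnrnpk isoforms 4767, 4768 and 4771, Mrpl33 isoform 13589, Ubb isoform 2595, from a polyubiquitin gene, and Zmat5 isoform 2142, from the gene for a protein of the minor spliceosome. Within a group, the share of its members seen in all 3 libraries ran from 1.96% in astrocyte sEVs to 6.75% in microglia cells.

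**Figure D1:**
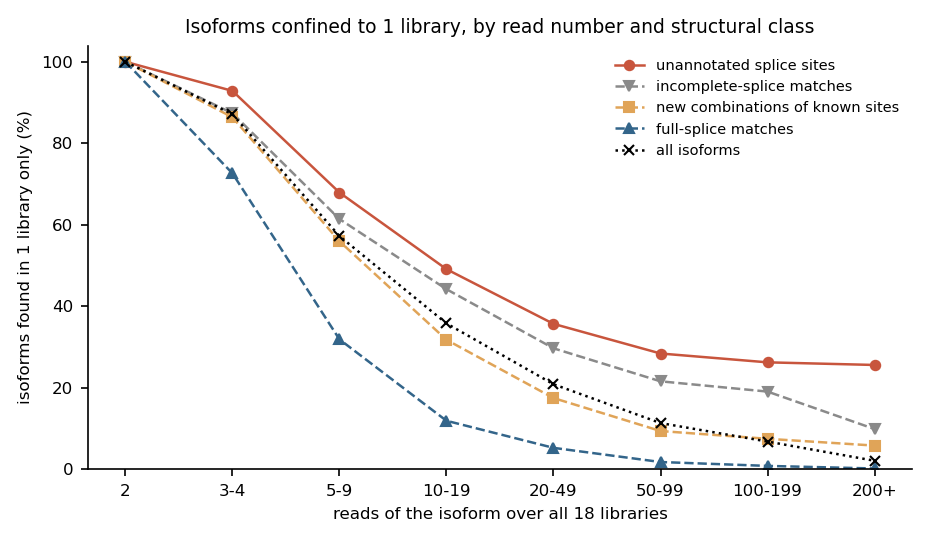
Percent of isoforms found in 1 library only (y axis), by the isoform's reads over all 18 libraries (x axis, read classes), for isoforms with unannotated splice sites, 3 other structural classes and all isoforms. The line of the isoforms with unannotated splice sites lies above the others from 3 reads upward and is still at 25.6% at 200 or more reads, where full-splice matches are at 0.145%.

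Isoforms with few reads can be seen in few libraries, so the plot of one-library isoforms sets the classes side by side at equal read numbers. At 20 to 49 reads, 35.7% of members were in 1 library, against 17.4% of new combinations, 29.7% of incomplete-splice matches and 5.21% of full-splice matches. At 200 or more reads the shares were 25.6% of members, against 5.77%, 9.84% and 0.145% of the same classes.

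Many well-covered members came from a single library. Of 278 members with 100 or more reads, 72 (25.9%) were in 1 library, with 20306 reads from 67 genes. They came from 17 of the 18 libraries, with 11 in neuron sEV library 2, 8 in microglia sEV library 3 and none in microglia sEV library 1. The 5 with the most reads, chosen after their values were seen, were Pld3 isoform 50161, from a lysosomal exonuclease gene, with 1310 reads in microglia cell library 3, Ifi204 isoform 95756 with 1168 in microglia sEV library 3, AW112010 isoform 97331 with 936 in the same library, Nsg2 isoform 61078, from a neuronal vesicle protein gene, with 835 in neuron cell library 2, and Fcgr3 isoform 92257, from an Fc receptor gene, with 819 in microglia sEV library 2. Each held between 15.5% and 25.6% of its gene's reads while the other replicates of its group had 0. Ifi204 and Fcgr3 belong to families of similar genes, so their reads are uncertain.

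Of the 3276 members seen in 2 or more libraries, 1662 (50.7%) were in 1 cell type, 744 of them in microglia, 524 in neurons and 394 in astrocytes. Over all isoforms in 2 or more libraries the share was 29.6%, and for new combinations 37.6%. Only 264 (8.06%) were in all 3 cell types, against 26.4% over all isoforms. By fraction, 583 (17.8%) were in sEVs with no reads in cells, 846 (25.8%) in cells with no reads in sEVs, and 1847 (56.4%) in both. Over all isoforms in 2 or more libraries these shares were 13.1%, 25.4% and 61.6%. These are descriptions, since classes with fewer reads per isoform are seen in fewer groups.

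The sEV and cell lists of a cell type were compared by overlap. Astrocytes shared 522 members, 14.2% of those in sEVs and 12.7% of those in cells. Microglia shared 658, 20.6% of the sEV list and 22.1% of the cell list, and neurons shared 539, 14.9% and 11.6% of the same lists. For new combinations the overlap was 29.7% to 32.8% of the sEV lists and 24.0% to 33.5% of the cell lists, and for full-splice matches 77.2% to 78.7% and 54.5% to 67.5%.

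A larger share of reads fell in members in sEVs than in cells. The share was 7.86%, 3.27% and 2.59% in astrocyte sEV libraries 1 to 3, against 1.89%, 1.88% and 1.95% in astrocyte cells. It was 2.37%, 3.18% and 3.48% in microglia sEVs, against 1.46%, 1.58% and 1.95% in microglia cells. In neuron sEVs it was 2.12%, 3.83% and 2.13%, against 1.87%, 2.28% and 2.18% in neuron cells. The groups did not overlap in astrocytes and microglia, while in neurons only library 2 of the sEVs lay above all the cell libraries. The mean difference over the cell types was 1.53 percentage points (two-sided exact permutation test within cell types, p = 0.0015, adjusted over 5 planned share tests 0.00375). Within a cell type, 3 libraries against 3 cannot give a p below 0.1.

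Members of Gm42047 accounted for 0.894 of the 1.53 points. They took 5.81%, 0.719% and 0.123% of the reads in astrocyte sEV libraries and 0.201%, 1.16% and 0.0778% in neuron sEV libraries, and at most 0.0162% in any cell library. Gm42047 isoform 17910 had 34329, 0 and 2 reads in astrocyte sEVs, against 81, 90 and 0 in astrocyte cells. Gm42047 isoform 83536 had 0, 2071 and 3 reads in astrocyte sEVs and 0, 5570 and 0 in neuron sEVs, and none in cells. Each of these isoforms was thus abundant in 1 or 2 libraries and nearly missing from their replicates. With astrocyte sEV library 1 and neuron sEV library 2 left out, the difference in read share was 0.794 points (exact permutation p = 0.003). With Gm42047 and the mitochondrially encoded genes left out of all libraries it was 0.603 points (exact permutation p = 0.0075), made up of 0.410 points in astrocytes, 1.33 in microglia and 0.0650 in neurons. Counting only members seen in 2 or more libraries and leaving out Gm42047, it was 0.200 points (exact permutation p = 0.107).

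The kinds of site were also compared one by one. Without Gm42047 and the mitochondrially encoded genes, novel_exon isoforms took 0.401 points more of the reads in sEVs than in cells (exact permutation test within cell types, adjusted over the 4 kinds p = 0.0287), of which microglia gave the largest difference, 1.01 points. Some of these microglia reads came from isoforms with reads in 1 microglia library only. In microglia sEV library 3, Ifi204 isoform 95756 gave 1168, AW112010 isoform 97331 gave 936 and Fcgr3 isoform 60544 gave 862. In library 2, Fcgr3 isoform 92257 gave 819. The microglia difference without these isoforms was not tested. Alt3 isoforms took 0.196 points more (adjusted p = 0.025) and isoforms with several labels 0.0272 points more (adjusted p = 0.0287), with -0.00567 points in neurons. The Alt3 difference was 0.352 points in astrocytes, 0.172 in microglia and 0.0628 in neurons. Gfap isoform 30610 gave 1504 and 2001 Alt3 reads in astrocyte sEV libraries 2 and 3. Rplp0 isoform 77989 gave 876 in neuron sEV library 2. The Alt3 difference without these isoforms was not tested. Alt5 isoforms did not pass the test, with a difference of -0.0214 points (adjusted p = 0.574).

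The difference was also seen with each gene counted equally. In 919 genes with a member and 10 or more reads in every library, the member share was taken gene by gene and averaged. It averaged 2.46% ± 0.299 in astrocyte sEVs against 1.35% ± 0.0857 in astrocyte cells, 2.21% ± 0.404 in microglia sEVs against 1.20% ± 0.0514 in microglia cells, and 3.0% ± 0.348 in neuron sEVs against 1.65% ± 0.166 in neuron cells (SD, n = 3). The sEV libraries lay above the cell libraries in every cell type, and the mean difference was 1.16 points (exact permutation p = 0.00025, the smallest this design can give, adjusted 0.00125). Of these genes, 603 had a higher mean share in sEVs and 316 a lower one, and the difference passed 5 points in 75 and 15 of them. The median number of reads per gene and library was similar, 78 in sEVs and 85 in cells.

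**Figure D2:**
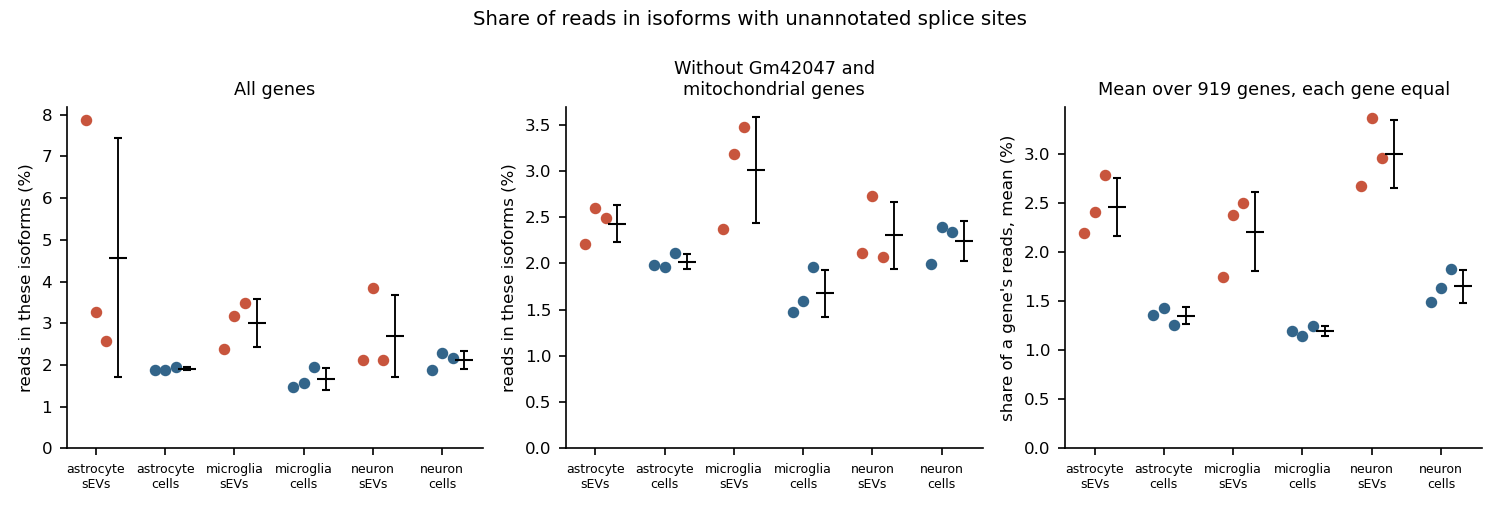
Share of reads in isoforms with unannotated splice sites in each library (points), with group mean and SD (bars, n = 3), for all genes, without Gm42047 and mitochondrial genes, and as the mean over 919 genes weighted equally, each in percent on the y axis, with sEVs left of cells for each cell type. With genes weighted equally, every sEV library lies above every cell library of its own cell type.

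Other structural classes moved with this difference. Full-splice matches took 81.7% ± 3.29 of reads in astrocyte sEVs against 89.2% ± 0.595 in astrocyte cells, and over the cell types their share was 7.02 points lower in sEVs (exact permutation p = 0.00025). Incomplete-splice matches took 4.21 points more in sEVs (exact permutation p = 0.00025). For new combinations of known sites the difference was -0.174 points (exact permutation p = 0.374). The part of these classes in the member shares was not tested.

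Members were also a larger share of the isoforms detected. They made up 9.41% ± 0.814 in astrocyte sEVs and 8.10% ± 0.117 in astrocyte cells, 11.1% ± 1.59 in microglia sEVs and 9.18% ± 1.26 in microglia cells, and 8.63% ± 0.478 in neuron sEVs and 8.37% ± 0.872 in neuron cells (SD, n = 3). The mean difference of 1.15 points had an exact permutation p of 0.0295 (adjusted 0.0492). It rested on single libraries: it no longer passed without microglia cell library 1, neuron cell library 1, neuron sEV library 1 or microglia sEV library 2 or 3, where the exact permutation p reached 0.0683 and the difference fell to 0.917 points. It was 0.16 points (exact permutation p = 0.206) among members in 2 or more libraries.

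Among cell types, the read share of members over all genes did not pass the test. Group means in cells spanned 0.447 points, with microglia lowest and neurons highest (exact one-way permutation p = 0.0714), and in sEVs 1.88 points (p = 0.496). Without Gm42047 and the mitochondrially encoded genes the range was 0.561 points in cells (exact permutation p = 0.025) and 0.709 in sEVs (exact permutation p = 0.157). Leaving out astrocyte sEV library 1 alone brought the range in sEVs to 0.317 points. With each gene counted equally, the range in cells was 0.452 points (exact one-way permutation p = 0.00357, unadjusted). Microglia cells were lowest at 1.20% and neuron cells highest at 1.65%. In sEVs that range was 0.795 points (exact one-way permutation p = 0.0714, unadjusted). The number of members detected was higher in neuron cells, 1782 ± 152, than in microglia cells, 1233 ± 329, with 1603 ± 34.2 in astrocyte cells (SD, n = 3, exact one-way permutation p = 0.00714). As a share of the isoforms detected, members were 8.37% ± 0.872 in neuron cells, 9.18% ± 1.26 in microglia cells and 8.10% ± 0.117 in astrocyte cells, a range that did not pass the test (exact permutation p = 0.411).

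Levels of single isoforms were compared as counts-per-million values (CPM) of TMM-scaled library sizes with edgeR's quasi-likelihood test, with p-values adjusted by Benjamini-Hochberg over all 9370 isoforms tested. Only 227 members (1.22%) had enough reads in at least 3 libraries, but they held 39.0% of member reads and came from 184 genes. They comprised 110 novel_exon, 68 Alt5, 45 Alt3 and 4 mixed isoforms. A member that entered the test through 1 group alone had to differ from the others, so the counts below describe the tested members and are not support for a difference between members and other isoforms. The same limit holds for p-values and folds of single members with reads in 1 group, 1 cell type or 1 fraction only. Those values are descriptions.

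In sEVs against cells, most calls at adjusted p under 0.05 were towards lower levels in sEVs, a majority that depended on the fit in microglia and neurons. A fit of only the microglia groups gave 10 higher and 9 lower, and with no abundance filter neurons had 8 higher and 5 lower. In astrocytes 21 members were called, 5 higher and 16 lower in sEVs, 9.25% of the tested members against 15.5% of all tested isoforms (3.22% higher and 12.3% lower). In microglia 13 were called, 2 higher and 11 lower, 5.73% against 9.36% of all (1.36% higher and 8% lower). In neurons 31 were called, 7 higher and 24 lower, 13.7% against 27.2% of all (6.26% higher and 20.9% lower). For the mean over the cell types 21 were called, 6 higher and 15 lower, 9.25% against 28% of all (6.92% higher and 21% lower). The common dispersion was 0.681, a coefficient of variation between replicates of 0.825, so only large differences could pass. The microglia count fell to 0 when microglia cell library 3 was left out, and the astrocyte and neuron counts fell to 8 and 12 without astrocyte cell library 3 and neuron cell library 1.

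**Figure D3:**
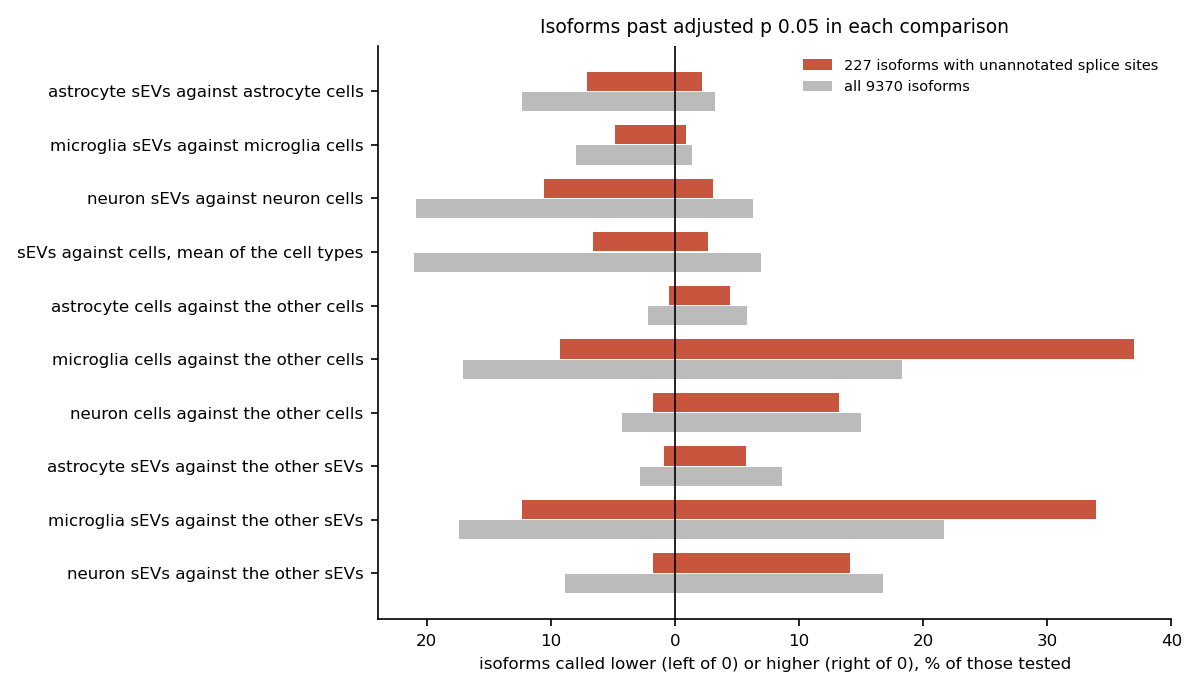
Percent of tested isoforms called higher (right of 0) or lower (left of 0) at adjusted p under 0.05 (x axis) in each comparison (y axis), for the 227 tested isoforms with unannotated splice sites and for all 9370 tested isoforms. Bars of the isoforms with unannotated splice sites are shorter than those of all isoforms where sEVs are set against cells, and in microglia cells 37.0% were higher, against 18.3% of all.

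Isoforms of Hnrnpk, found in all 18 libraries, were lower in sEVs of astrocytes and neurons. Hnrnpk isoform 4771 had 197, 87 and 241 reads in astrocyte sEVs against 421, 449 and 408 in astrocyte cells, and 21, 22 and 36 in neuron sEVs against 288, 307 and 201 in neuron cells. In microglia it had 120, 272 and 295 reads in sEVs against 108, 156 and 226 in cells. The sEV and cell libraries were thus apart in astrocytes and neurons and mixed in microglia. The level was 238 ± 68.6 CPM in astrocyte sEVs against 625 ± 10.5 in astrocyte cells (log2 change -1.39, SE 0.34, edgeR adjusted p = 0.0125) and 44.7 ± 13.5 in neuron sEVs against 467 ± 79.3 in neuron cells (log2 change -3.38, SE 0.37, adjusted p = 2.33e-05). In microglia it was 399 ± 161 CPM in sEVs and 440 ± 84.3 in cells, which did not pass the test (log2 change -0.14, SE 0.33, adjusted p = 1). Among the tested members it was the one whose sEV to cell difference differed between cell types (edgeR test of all 3 differences, adjusted p = 0.00866, background 1.23% of isoforms called). This call was lost in 4 of 18 fits that left out a library (microglia cell library 1 or 2, neuron cell library 1 or neuron sEV library 2) and with no abundance filter, at adjusted p up to 0.0805, and isoform 4767 also passed without TMM and with DESeq2.

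The more abundant Hnrnpk isoform 4767 had 310, 132 and 371 reads in astrocyte sEVs against 605, 658 and 534 in astrocyte cells, and 57, 27 and 66 in neuron sEVs against 204, 171 and 226 in neuron cells. In microglia the reads were 415, 491 and 613 in sEVs and 294, 271 and 450 in cells. With library sizes scaled, isoform 4767 was at 881 ± 125 CPM in microglia sEVs and 924 ± 121 in microglia cells, which was not called. It fell in neuron sEVs to 82.9 ± 28.4 CPM, against 358 ± 72.5 in neuron cells (edgeR adjusted p = 0.000239), and in astrocyte sEVs to 367 ± 108 CPM, against 878 ± 66.5 in astrocyte cells (adjusted p = 0.00985). The astrocyte calls were lost without astrocyte sEV library 1, and that of isoform 4771 also without astrocyte sEV library 2, with adjusted p up to 0.175 for isoform 4771 and 0.162 for isoform 4767 over all alternatives. Over the cell types both isoforms fell in sEVs, isoform 4771 by 1.64 (SE 0.20, adjusted p = 2.16e-05) and isoform 4767 by 1.14 (SE 0.17, adjusted p = 0.00013) on the log2 scale. Nearly all Hnrnpk reads were in members, so these values follow the reads of the gene as a whole.

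The glycoprotein gene Gpm6a, whose product sits in neuronal membranes and shapes neurites, gave the second most abundant member. Gpm6a isoform 17237, labelled novel_exon, held 10234 reads, 50.1% of the gene. It had 40, 51 and 33 reads in astrocyte sEVs against 1725, 1490 and 2945 in astrocyte cells. In neurons it had 4, 62 and 126 reads in sEVs against 1222, 828 and 1706 in cells, and in microglia 2 reads in all. Every sEV library of both cell types lay far below every cell library. It fell in astrocyte sEVs to 63.1 ± 31.4 CPM, against 3035 ± 1228.5 CPM in astrocyte cells (log2 change -5.59, SE 1.00, edgeR adjusted p = 0.00274), and in neuron sEVs to 111 ± 101 CPM, against 2254 ± 920 in neuron cells (log2 change -4.34, SE 0.94, adjusted p = 0.00555). Reads of the whole gene were low too, at 87, 121 and 65 in astrocyte sEVs against 2130, 1905 and 3235 in astrocyte cells.

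**Figure D4:**
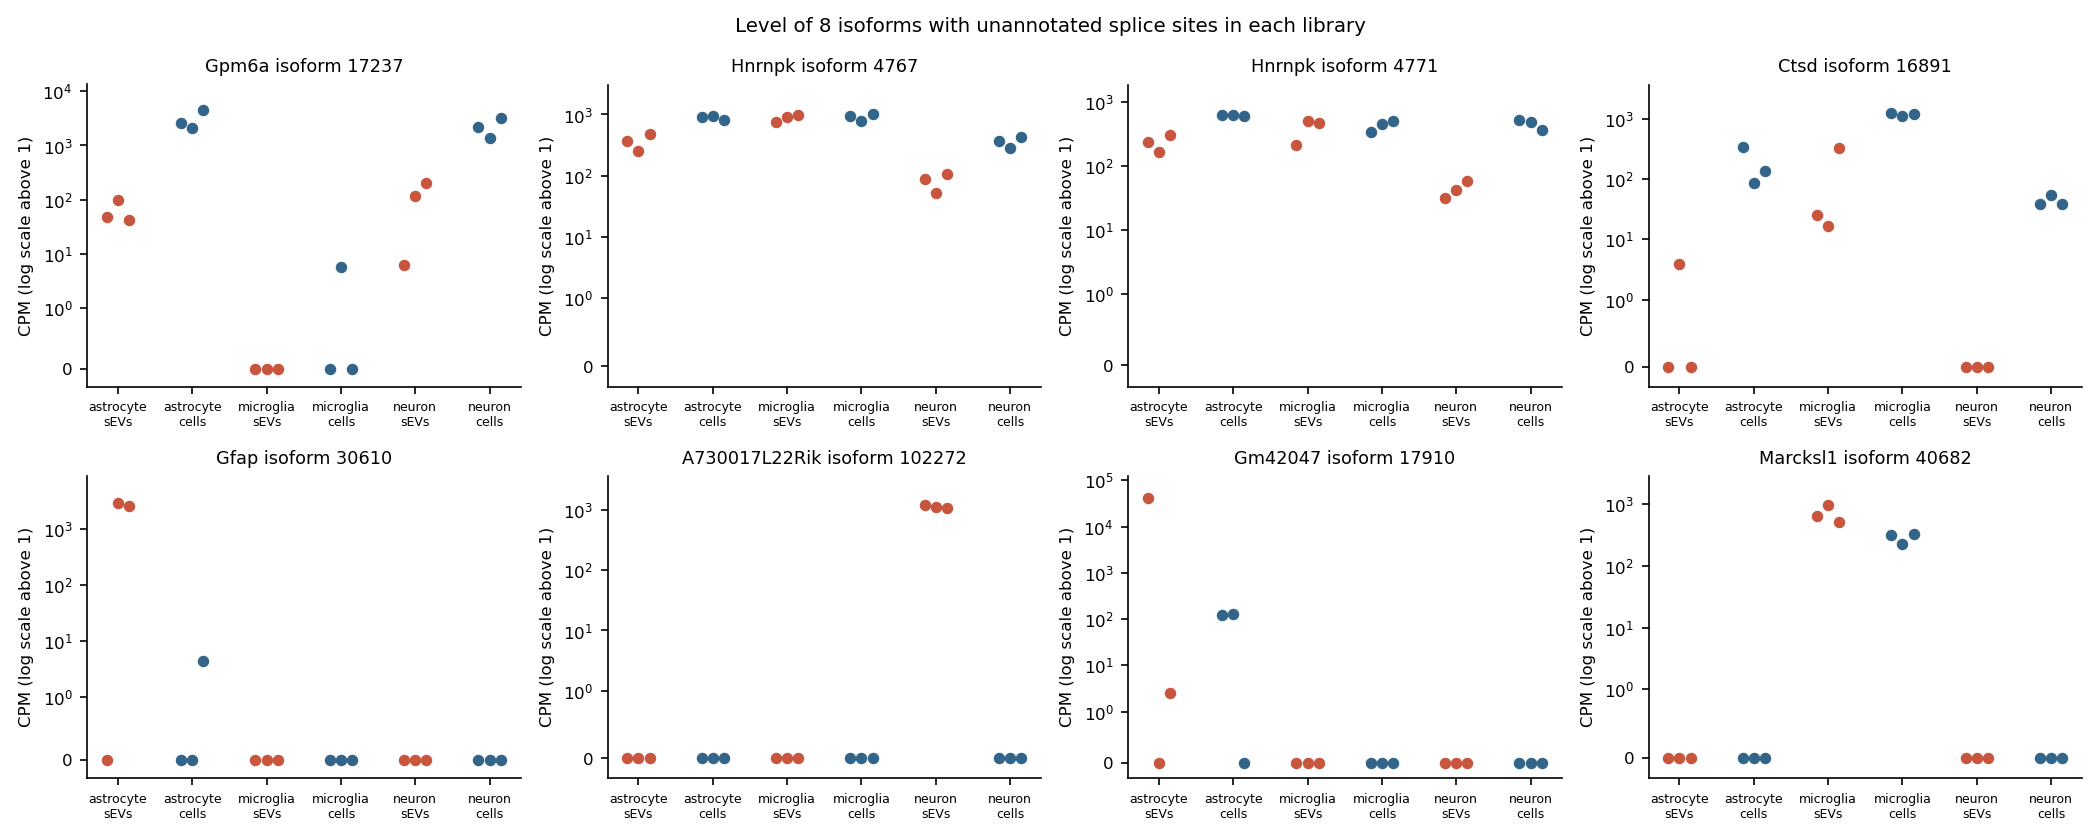
Level in CPM (y axis, log scale above 1, linear below) of 8 isoforms with unannotated splice sites in each of the 18 libraries (points), by group on the x axis with sEVs left of cells. Gpm6a isoform 17237 and Ctsd isoform 16891 are lower in sEVs, A730017L22Rik isoform 102272 appears in neuron sEVs only, and the Gfap and Gm42047 isoforms differ between replicates by orders of magnitude.

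Isoforms of both cathepsin genes were lower in sEVs. Ctsd and Ctsb encode lysosomal proteases. Ctsd isoform 16891, an Alt5 form, had 0, 2 and 0 reads in astrocyte sEVs against 231, 62 and 91 in astrocyte cells, and none in neuron sEVs against 21, 34 and 21 in neuron cells. In microglia it had 14, 9 and 204 reads in sEVs against 382, 381 and 523 in cells, where microglia sEV library 3 stood well above its replicates. Over the cell types it fell by 6.08 on the log2 scale (SE 0.81, edgeR adjusted p = 9.86e-05). Ctsb isoform 5246 had no reads in any sEV library, against 3 to 29 in every cell library (adjusted p = 0.000116, at least 4.92-fold lower in sEVs with a floor of 3 reads per library). It could enter the test only through cells, so these values are descriptions. Ctsb isoform 5248 was at 5.97 ± 12 CPM in sEVs against 142 ± 189 in cells (SD over 9 libraries, adjusted p = 0.000209). The Ctsd gene as a whole also had few reads in astrocyte sEVs, at 64, 62 and 63 against 1021, 886 and 1785 in astrocyte cells. In microglia, members took 15.4% of the Ctsd reads in sEVs and 6.95% in cells.

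Members of other genes were lower in sEVs too. Tspan7 isoform 19219, from a tetraspanin gene, had no reads in astrocyte sEVs against 119, 133 and 134 in astrocyte cells (edgeR adjusted p = 0.00486, at least 42.7-fold lower), a call that DESeq2 did not make (adjusted p = 0.215). Lamp2 isoform 19315, from a gene for a lysosomal membrane protein, had none in astrocyte sEVs against 14, 19 and 47 in astrocyte cells (adjusted p = 0.0144), a call lost without astrocyte cell library 3 or without astrocyte sEV library 1 or 3, at adjusted p up to 0.0734 over all alternatives. Nell2 isoform 6507, from a gene for a secreted neural protein, had none in neuron sEVs against 26, 38 and 22 reads in neuron cells (adjusted p = 0.00512, at least 9.8-fold lower; 0.0649 with no abundance filter). In microglia, Ifit3 isoform 39894, from an interferon-induced gene, had no reads in sEVs against 61, 66 and 63 in cells (adjusted p = 0.0114, at least 33.8-fold lower), and Peli1 isoform 2235, from a ubiquitin ligase gene of innate immune signalling, had none in sEVs against 31, 15 and 46 in cells (adjusted p = 0.00843). The Ifit3 call was lost without any one of the microglia cell libraries and the Peli1 call without microglia cell library 1 or 3, with adjusted p up to 0.292 and 0.0651 over all alternatives. None of the isoforms in this paragraph had reads in any sEV library. They could enter the test only through cells, Tspan7 and Ifit3 through 1 group alone, so their p-values and folds are descriptions.

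Fewer members rose in sEVs. A730017L22Rik isoform 102272 had 774, 565 and 643 reads in neuron sEVs and none in the other 15 libraries (edgeR adjusted p = 0.000309, at least 209-fold higher than in neuron cells; 0.0608 by DESeq2). It could enter the test only through neuron sEVs, so its p-value and fold are descriptions. The gene had 839, 625 and 719 reads in neuron sEVs, and 3 reads in all in neuron cells. 5031425E22Rik isoform 77803 had 134, 141 and 302 reads in neuron sEVs and none in neuron cells (adjusted p = 0.00984), and 169, 10 and 7 in astrocyte sEVs. It had no reads in any cell library and could enter the test only through sEVs. Gm42047 isoform 17909 had 153, 2 and 152 reads in neuron sEVs against none in neuron cells (adjusted p = 0.00819), and 120, 89 and 138 in astrocyte sEVs against 2, 0 and 0 in astrocyte cells (adjusted p = 0.0167, lost without any one of the astrocyte cell libraries, at up to 0.0861). These sEV-rich forms came from predicted or unnamed genes.

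Among named genes, Mrpl33 isoform 13589 had 27, 23 and 23 reads in microglia sEVs against 2, 3 and 5 in microglia cells, a 4.81-fold difference in CPM (edgeR adjusted p = 0.0252), and over the cell types it rose by 1.55 on the log2 scale (SE 0.32, adjusted p = 0.00178). Ifi209 isoform 37748, from an interferon-inducible gene with close relatives, had 164, 231 and 137 reads in microglia sEVs against 16, 17 and 24 in microglia cells, a 6.05-fold difference (adjusted p = 0.0188). Both microglia calls were lost without any one of the microglia cell libraries or without microglia sEV library 1 or 2, and the Mrpl33 call also without astrocyte cell library 1 or neuron cell library 1 or 3. Over all alternatives the adjusted p reached 0.393 for Mrpl33 and 0.182 for Ifi209. DPCD isoform 9504 was at 111 ± 12 CPM in neuron sEVs against 25.6 ± 8.16 in neuron cells (adjusted p = 0.0388), a call lost in 12 of 18 fits that left out a library, at up to 0.25.

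Comparing each cell type with the other ones, microglia had the most members called. In microglia cells 105 were called, 84 higher and 21 lower, 46.3% against 35.4% of all tested isoforms. The higher ones were 37.0% of tested members against 18.3% of all isoforms, of which 17.1% were lower. In microglia sEVs 105 were called, 77 higher and 28 lower, with 33.9% higher against 21.7% of all, of which 17.4% were lower and 39.1% called in all. Of the 84 members higher in microglia cells, from 72 genes, 74 had no read in the astrocyte and neuron cells, and of the 77 higher in microglia sEVs 71 had none in the other sEVs. These are 88.1% and 92.2% of the members called higher, beside 47.3% and 41.6% of all isoforms called higher in the same comparisons, a difference that was not tested. Members without reads elsewhere could enter the test only through microglia. Of the members called higher, 70 were called so in both fractions, 90.9% of the sEV list and 83.3% of the cell list. Of those called lower, 11 were called so in both, 39.3% of the sEV list and 52.4% of the cell list. The same overlaps over all tested isoforms are not given here. Astrocytes had 10 members higher and 1 lower in cells (4.85%, against 7.91% of all isoforms, 5.77% higher and 2.13% lower), and 13 higher and 2 lower in sEVs (6.61%, against 11.4% of all, 8.61% higher and 2.83% lower). With DESeq2 the split of the astrocyte calls was the other way round, 8 higher and 22 lower in cells and 14 higher and 22 lower in sEVs. Neurons had 30 higher and 4 lower in cells (15%, against 19.2% of all, 15% higher and 4.27% lower), and 32 higher and 4 lower in sEVs (15.9%, against 25.7% of all, 16.8% higher and 8.88% lower).

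The members with the largest changes in microglia were near absent from the other cultures. Marcksl1 isoform 40682, from an actin-binding protein gene, had 358, 512 and 321 reads in microglia sEVs and 98, 77 and 146 in microglia cells, and none in the other 12 libraries. It was at least 148-fold higher in microglia sEVs than in the other sEVs (edgeR adjusted p = 4.7e-06) and at least 60-fold higher in microglia cells than in the other cells (adjusted p = 8.61e-06). Lims1 isoform 38067, from an adaptor gene of focal adhesions, had 121, 161 and 205 reads in microglia sEVs and 63, 60 and 98 in microglia cells, and none elsewhere. Ifit3 isoform 39899 had 166, 395 and 352 reads in microglia sEVs and 143, 165 and 186 in microglia cells, against 2 reads in all the other libraries. Cmpk2 isoform 38637, from a mitochondrial nucleotide kinase gene, had 68, 57 and 85 reads in microglia cells and none in astrocytes or neurons (adjusted p = 0.0006). AW112010 isoform 39823 was as specific but uneven, with 1047, 39 and 9 reads in microglia sEVs and 277, 17 and 388 in microglia cells. The Marcksl1, Lims1, Cmpk2 and AW112010 isoforms could enter the test only through microglia, so their p-values and folds are descriptions. Gpm6a isoform 17237 had the largest change among the called members that were lower, with 2 reads in microglia cells (adjusted p = 7.18e-05).

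Of the 30 members higher in neuron cells, 13 had no read in the other cells, and of the 32 higher in neuron sEVs 10 had none in the other sEVs. These are 43.3% and 31.2%, beside 21.8% and 19.2% of all isoforms called higher in neurons. Gpm6a isoform 58955 had 68, 59 and 68 reads in neuron cells and 17, 9 and 9 in neuron sEVs, and none in other cultures (edgeR adjusted p = 0.000488 among cells, at least 18-fold higher). Meg3 isoform 52950 had 31, 38 and 43 reads in neuron cells and none elsewhere (adjusted p = 0.00703, at least 10.3-fold higher), a call lost without any one of the neuron cell libraries, at up to 0.234 over all alternatives. Sh3glb2 isoform 55580, from an endophilin gene, had 23, 13 and 13 reads in neuron sEVs and 22, 38 and 19 in neuron cells, and none elsewhere (adjusted p = 0.0016 among cells). In neuron sEVs, Nnmt isoform 59484, from a nicotinamide methyltransferase gene, had 64, 43 and 27 reads, and Plb1 isoform 57250, from a phospholipase gene, 25, 62 and 33, against none in the other sEVs (adjusted p = 0.00051 for Nnmt and 0.00128 for Plb1). These Gpm6a, Meg3, Sh3glb2, Nnmt and Plb1 isoforms had reads in neuron libraries only. They could enter the test only through neurons, so their p-values and folds are descriptions. Hnrnpk isoform 4767 was lower in neuron sEVs than in the other sEVs by 2.77 on the log2 scale (SE 0.29, adjusted p = 1.36e-05).

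Of the 10 members higher in astrocyte cells 2 had no read in the other cells, and of the 13 higher in astrocyte sEVs 5 had none in the other sEVs. These are 20% and 38.5%, beside 5.55% and 18.6% of all isoforms called higher in astrocytes. Sybu isoform 6031, from the gene for a kinesin-linked transport protein, had 90, 58 and 46 reads in astrocyte sEVs and 44, 36 and 49 in astrocyte cells. It had 17, 22 and 11 reads in neuron sEVs, 15, 13 and 20 in neuron cells, and none in microglia. It rose against the other sEVs in astrocyte sEVs (log2 change 5.22, SE 0.53, edgeR adjusted p = 0.000211) and against neuron and microglia cells in astrocyte cells (log2 change 4.67, SE 0.57, adjusted p = 0.000658). Prdx6 isoform 841, from a peroxiredoxin gene, had 69, 37 and 51 reads in astrocyte sEVs, against 7, 0 and 11 in neuron sEVs and none in microglia sEVs (log2 change 5.65, SE 1.02, adjusted p = 0.00368). The log2 changes average the other cell types on the log scale, so a cell type without reads weighs heavily in them.

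Within genes, the share of reads in members was tested against the other isoforms of the same gene with edgeR's diffSpliceDGE in 331 genes. In astrocytes 1 gene passed, the astrocyte intermediate filament gene Gfap (0.302% of the genes tested). Its member share was 0.716%, 29.5% and 15.9% in astrocyte sEVs, against 0.185%, 0.406% and 0.298% in astrocyte cells (log2 change 5.72, adjusted p = 0.00283). Most of it was Gfap isoform 30610, with 0, 1504 and 2001 reads in astrocyte sEVs against 0, 0 and 3 in astrocyte cells, so sEV library 1 was near the cells. The call was lost without astrocyte sEV library 2 or any one of the astrocyte cell libraries, at adjusted p up to 0.145 over all alternatives. In microglia and neurons 0 genes passed (background 0%), with 36 and 47 genes at an unadjusted p under 0.05. The same test on new combinations of known sites called 0 genes in astrocytes and microglia and 4 in neurons (0.593%).

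**Figure D5:**
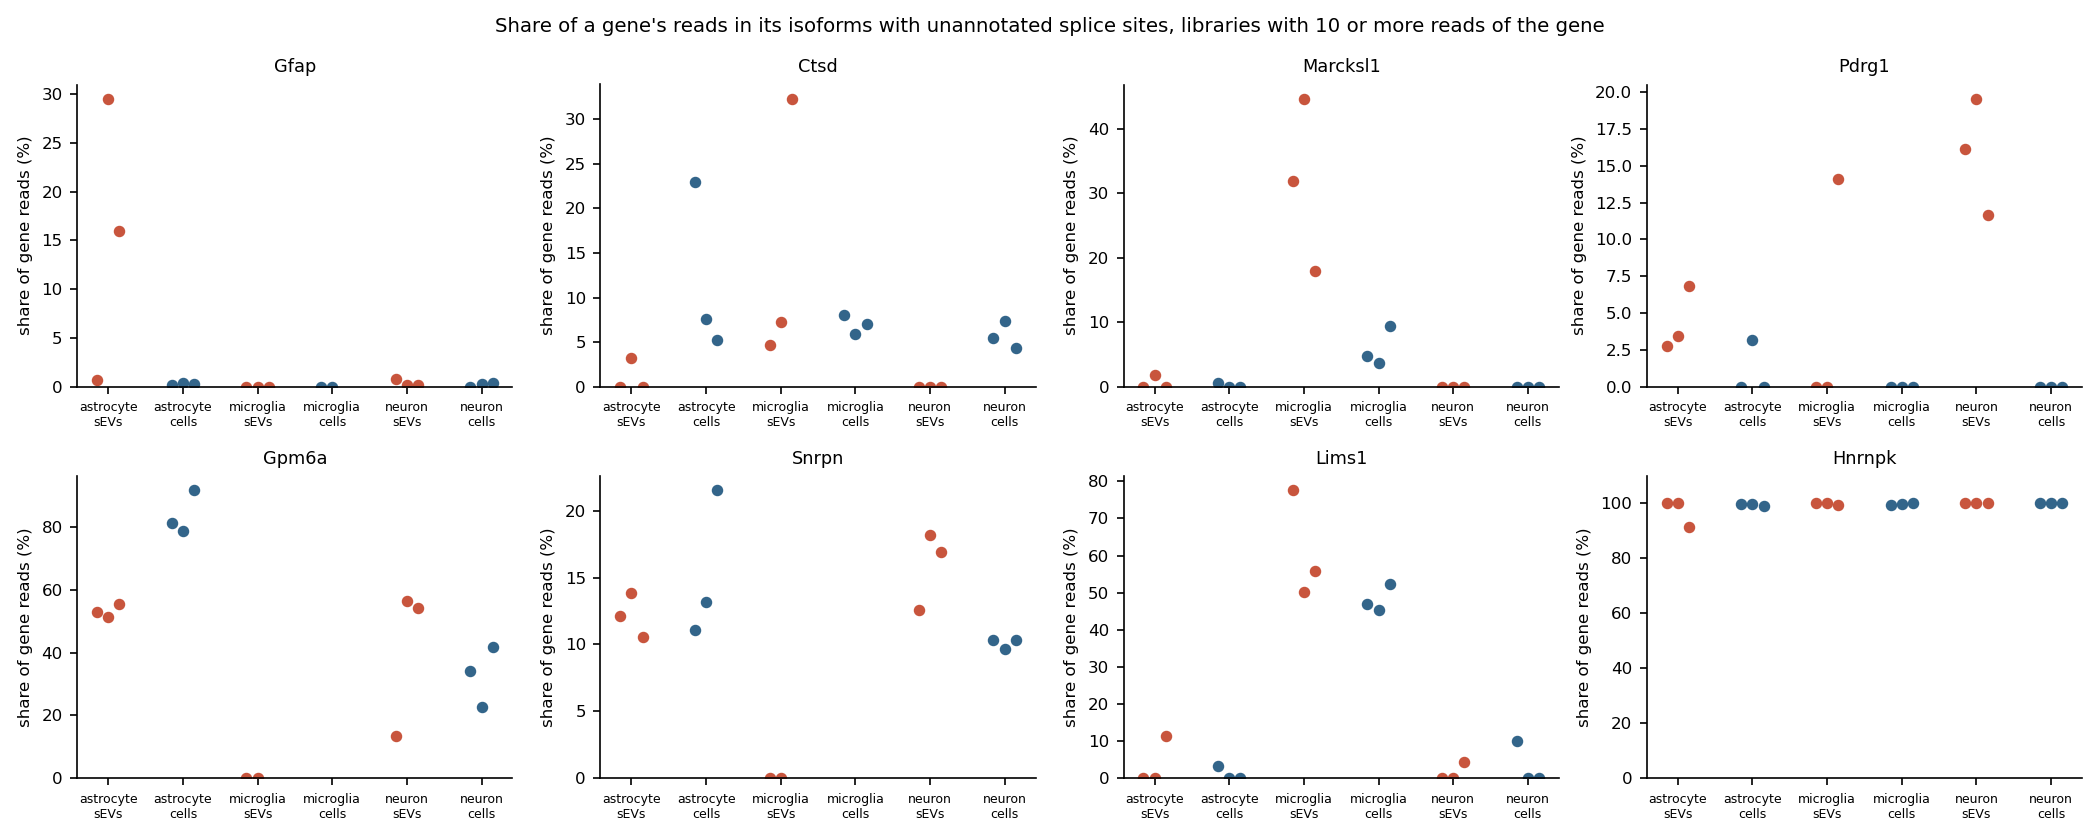
Share of a gene's reads in its isoforms with unannotated splice sites (y axis, percent) for 8 genes in each library with 10 or more reads of the gene (points), by group on the x axis with sEVs left of cells. Hnrnpk lies between 91.5% and 100% in all libraries, the Marcksl1 share is highest in microglia sEVs, and the Gfap share is high in 2 of the 3 astrocyte sEV libraries.

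The genes next in order did not pass the test. Marcksl1 had a member share of 31.9%, 44.6% and 18% in microglia sEVs, against 4.79%, 3.66% and 9.47% in microglia cells, without overlap (diffSpliceDGE adjusted p = 0.185). Gbp2, a gene for an interferon-induced GTPase, had 0% in each microglia sEV library, against 1.00%, 3.09% and 2.75% in microglia cells (adjusted p = 0.0508). Pdrg1 had 16.2%, 19.5% and 11.7% in neuron sEVs, against 0% in each neuron cell library (adjusted p = 0.195). Ctsd had 0% in each neuron sEV library, against 5.42%, 7.40% and 4.34% in neuron cells, with only 36 to 48 reads of the gene per neuron sEV library (adjusted p = 0.195).

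Other genes had high member shares in both fractions. Lims1 had 77.5%, 50.3% and 55.9% of its reads in members in microglia sEVs and 46.8%, 45.4% and 52.5% in microglia cells, and at most 11.3% in any astrocyte or neuron library. The Gpm6a share was 52.9%, 51.2% and 55.4% in astrocyte sEVs, against 81.3%, 78.8% and 91.6% in astrocyte cells, but 13.5%, 56.6% and 54.2% in neuron sEVs, against 34.3%, 22.8% and 41.8% in neuron cells. In the plot of member shares, the astrocyte fractions of Gpm6a do not overlap and the neuron fractions do. Snrpn had 12.6%, 18.2% and 16.9% in neuron sEVs, against 10.3%, 9.65% and 10.4% in neuron cells. These shares of Gpm6a, Snrpn and Lims1 are given as values.

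Gene lists for splicing, EV proteins, cytokines and cell types held few members that could be tested. Of 26 genes for hnRNP proteins, 15 had 115 members, and 38.3% of the list's reads were in members, nearly all of them Hnrnpk. Of the 9 hnRNP members tested, 0 rose and 2 fell in astrocyte sEVs and 0 rose and 5 fell in neuron sEVs, all of them Hnrnpk, and none was called in microglia sEVs. In 28 genes for inflammatory cytokines and chemokines, 20 had 80 members. The 8 that were tested, from 5 genes, were all called higher in microglia cells and in microglia sEVs than in the other cultures, beside 18.3% of all isoforms in cells and 21.7% in sEVs. None of the 8 had reads in astrocytes or neurons, so they entered the test only through microglia and their count is a description. They included Il12b isoform 38277, of an interleukin subunit gene, with 57, 75 and 156 reads in microglia sEVs and 15, 21 and 27 in microglia cells, and Il27 isoform 41639, of another, with 79, 21 and 48 in microglia sEVs and 49, 0 and 54 in microglia cells. Between microglia sEVs and microglia cells none of them was called.

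Over all 18 libraries together, the remaining lists had small member shares, from 0% for blood cell markers to 2.06% for nonsense-mediated decay and exon junction genes. Within groups the shares varied more, in both directions. Astrocyte markers had 9.47% in astrocyte sEVs against 0.807% in astrocyte cells. Gfap isoform 30610 alone gave 0, 1504 and 2001 of these member reads in astrocyte sEV libraries 1 to 3. Nonsense-mediated decay and exon junction genes had 1.30% in neuron sEVs against 5.47% in neuron cells, where Rnps1 isoform 54463 alone gave 9, 8 and 20 reads. Serine- and arginine-rich (SR) splicing factors and relatives had 84 members in 19 of 23 genes with 1.46% of the list's reads, and core spliceosome genes 36 members in 15 of 36 genes with 1.42%. Ribosomal protein genes had 66 members in 35 of 81 genes with 0.579%, and EV biogenesis and surface protein genes 56 members in 15 of 25 genes with 0.629%. None of the members of the decay, SR, core spliceosome, ribosomal and EV lists had enough reads in enough libraries to be tested. Rplp0 isoform 77989, for example, had 876 of its 895 reads in neuron sEV library 2. Cd63 isoform 2073, of the tetraspanin gene used as an EV marker, had no reads in sEVs against 43, 18 and 11 in astrocyte cells. Srsf7 isoform 8262, of a splicing factor gene, had 19 of its 23 reads in neuron sEV library 3. Among marker lists, 91 members of astrocyte marker genes held 1.98% of the list's reads, 49 of microglia marker genes 1.78% and 35 of neuron marker genes 0.963%, and Fcer1g isoform 37671 was the 1 marker member tested, with 18, 20 and 16 reads in microglia sEVs, 2, 7 and 12 in microglia cells and none in the other cultures.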

How the data were processed

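Per the labels' protocols, polyadenylated RNA of 18 libraries was made into cDNA, reamplified and sequenced on a PacBio instrument. The submitters' processing notes name minimap2 and the genome build GRCm39. Not given in the sources used here: tool versions, how isoforms were called, and the annotation. The authors deposited raw read counts per isoform, with no strand, coordinate or sequence, so overlapping, antisense and near-identical genes may share reads. Reads carry no molecular identifiers, so floors cover counting error only.

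Counts were used as deposited. Isoforms were tested with edgeR 4.0.16 (R 4.3.3, limma 3.58.1): filterByExpr by group, TMM, one quasi-likelihood model over the 6 groups and 18 libraries, Benjamini-Hochberg adjustment and a threshold of 0.05. Shares within genes were tested with diffSpliceDGE on member reads against the other reads of a gene. Library shares were tested by exact permutation over 8000 arrangements within cell types (smallest p 0.00025) or 1680 among cell types (smallest p 0.00357). Folds against a group at 0 reads use a floor of 3 reads per library. They set this floor against the observed mean of the group with reads, so "at least" does not cover the spread of that group. Both fits were tested on simulated counts first.

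Named isoforms were those with the most reads, the smallest adjusted p or largest change without overlap, the largest share of their gene, and list examples. Members, lists and rules were chosen with earlier results of these data known. RefSeq gene types came from assembly GRCm38.p6, matched by symbol. Alternatives were other scaling, no abundance filter, only the groups compared, DESeq2 1.42.0, a replicate block, each library left out, other member definitions and gene minimums.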

Additional observations from a re-analysis of the deposited data

Results flagged for a closer look

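The sEV to cell difference of Hnrnpk isoform 4771 differed between cell types by a test of the difference itself (edgeR quasi-likelihood test of all 3 differences, adjusted p = 0.00866, against 1.23% of all isoforms called). The log2 change was -1.39 in astrocyte sEVs against astrocyte cells, -0.14 in microglia sEVs against microglia cells and -3.38 in neuron sEVs against neuron cells. The call was lost without microglia cell library 1 or 2, neuron cell library 1 or neuron sEV library 2, and with no abundance filter, with adjusted p up to 0.0805.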

How the results depend on the processing

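Among the library shares, the named isoforms and the top genes of the within-gene test, no called value changed direction under the alternatives run. The other called members were not followed one by one. Called members in astrocyte sEVs against cells numbered 21, but 9 with no abundance filter, 12 with a replicate block and 10 without the 2 libraries rich in Gm42047 members, a setting chosen after seeing the data. Microglia sEVs against cells had 13, but 1 with no filter and 3 with the block, and neuron sEVs against cells 31, but 13 with no filter. With DESeq2 the mean over cell types gave 37 (14 higher, 23 lower) in place of 21, astrocyte cells 30 (8 higher, 22 lower) in place of 11, and astrocyte sEVs 36 (14 higher, 22 lower) in place of 15. Astrocyte cells had 6 and neuron sEVs 58 in place of 36 with no filter, and the block gave neuron cells 22 in place of 34 and astrocyte sEVs 8. The interaction had 2 calls without TMM, 0 with no filter (34 at an unadjusted p under 0.05) and 2 with DESeq2. Genes with a changed member share numbered 2 in astrocytes without the 2 libraries, 0 with no filter, and 1 in microglia with no filter.

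DESeq2 also shifted the split of higher to lower calls to 8 and 11 in astrocyte sEVs against cells, 50 and 24 in microglia cells, 53 and 32 in microglia sEVs, 25 and 19 in neuron cells and 30 and 21 in neuron sEVs. Without TMM it was 10 and 13 for the mean over cell types and 4 and 11 for microglia sEVs against cells. Fits of only the groups compared gave 10 and 9 in microglia and 12 and 16 in neurons. Dropping TMM moved the median log2 change of all isoforms to -1.27, against -0.57, in microglia cells.

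Leaving out 1 library gave 8 to 21 calls in astrocyte sEVs against cells, 0 to 10 in microglia and 12 to 35 in neurons, 16 to 26 for their mean, and 0 to 1 for the interaction. It gave 4 to 9 in astrocyte cells, 89 to 132 in microglia cells, 16 to 41 in neuron cells, 9 to 16 in astrocyte sEVs, 97 to 133 in microglia sEVs and 29 to 52 in neuron sEVs. Changed gene shares numbered 0 to 2 in astrocytes, 0 to 2 in microglia and 0 to 4 in neurons. The sEV minus cell read share ran from 0.984 to 1.86 points, the detected share from 0.917 to 1.45, the gene mean from 1.09 to 1.23, the range among cells from 0.347 to 0.589 and among sEVs from 0.317 to 2.87. Calls of single named isoforms and genes were unchanged in 2905 of 3510 such comparisons and lost in 599.

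The read share difference was 0.200 points (exact permutation p = 0.107) without Gm42047 and with members in 2 or more libraries. The detected share was 1.04 points (exact permutation p = 0.0848) with partial intron retention and 0.16 (p = 0.206) for members in 2 or more libraries. The range among cells passed the test at 0.631 points with partial intron retention (exact permutation p = 0.0357), 0.561 without Gm42047 and mitochondrial genes (p = 0.025), 0.636 without mono-exonic isoforms (p = 0.00714) and 0.447 with the block (p = 0.0107).

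Whether same-numbered sEV and cell libraries were paired could not be told. Correlations of their deviations from the group means ran from -0.039 to 0.0597, and those of differently numbered libraries from -0.049 to 0.0357. The highest value came from a same-numbered pair in microglia and neurons, but not in astrocytes. The causes of these shifts were not tested. With 3 libraries a group and a median of 3 reads per member, 1.22% of the members entered the fit.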
